A study of Mus musculus with 2 samples.

Results

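Procr+ Ly6a+ cells in single-cell RNA-seq of sorted mouse bone marrow were chosen by measured transcripts, those of 2 surface proteins and 3 granule proteins. A cell was included when it held at least 1 UMI (a tagged transcript molecule) of Procr and at least 1 of Ly6a, and fewer than 10 UMIs per 10000 of the granule genes Mpo, Elane and Ctsg together. This gate held 1171 of 20241 kept cells, 572 of 10769 in the library labelled RUNX1 KO and 599 of 9472 in the library labelled RUNX1 WT. The cells had been sorted as LSK CD150+, that is, without lineage markers, with Sca-1 and Kit, and with the SLAM receptor CD150. The mouse model named for both libraries carries a Runx1 allele flanked by loxP sites (Runx1 F/F) and Mx1-Cre, a Cre recombinase gene under an interferon-inducible promoter that acts in many tissues besides blood. The number of animals per library, their age, and whether and when Cre was induced are not given in the sources used here. Since there was 1 library per genotype, differences between the libraries are described without a test or a check in replicates, and each interval is an exact 95% interval for counting error only.

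Haematopoietic stem cells renew themselves and supply every blood lineage, and most of them divide rarely in adult marrow. Procr encodes the endothelial protein C receptor (EPCR) and Ly6a encodes Sca-1. Both are used with CD150 to enrich stem cells in mice, and both are also found on endothelial cells. CD48, CD34 and Flt3 are commonly used to sort progenitors away from long-term stem cells, which are low for them in adult mice. RUNX1 is a DNA-binding transcription factor that acts with the partner subunit CBFB and is required for stem cells to arise in the embryo.

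Stem cell genes outside the gate rule were high in these cells in both libraries. Mecom, whose product is a transcription factor that maintains stem cells, stood at 88.2 CPM (counts per 1000000 UMIs, summed over the gated cells) in the KO-labelled library, against 18.5 CPM in the other kept cells of that library. In WT it stood at 169 CPM in the gate and 52.5 CPM outside it. Hlf, a transcription factor gene of stem cells, was 3.91 times as high inside the gate as outside it in the KO-labelled library and 4.0 times in WT. Fgd5 had ratios of 14.9 and 5.89, Mllt3 of 2.44 and 3.63, Cdkn1c of 2.88 and 4.17, and Hoxb5 of 2.28 and 2.34. Slamf1, which encodes CD150 itself, did not follow them in the KO-labelled library, with a ratio of 0.597 there and 1.34 in WT, and Ctnnal1 had 0.740 and 1.19.

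Endothelial cells, which also carry both gate markers, left little trace. Cdh5, which encodes the endothelial cadherin, had 0 UMIs in the gate of either library, and Cldn5 had 1 and 2 UMIs, Kdr 7 and 13, and Plvap 10 and 2 in the KO-labelled and WT gates. The summed level of the 15 genes of the endothelial list was 408 CPM in the KO-labelled gate and 361 CPM in the WT gate, against 254 and 218 CPM outside it. Only 6 of the 15 reached 5 CPM, and these (Egfl7, Eng, Esam, Emcn, Pecam1 and Tek) are also found in blood stem cells. When each cell was thinned to 3000 UMIs, 63.2% (59.1 to 67.2) of KO-labelled and 73.4% (69.7 to 76.9) of WT gated cells held a Mecom or Hlf UMI. That joint share is not given for the other kept cells. The gate is called stem-like from most of its cells and not from all of them.

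The gate rested on few molecules. Procr was seen as a single UMI in 431 of 572 KO-labelled gated cells and 419 of 599 WT gated cells, and Ly6a as a single UMI in 190 and 240. The highest granule-gene level inside the gate was 7.42 UMIs per 10000 in the KO-labelled library and 6.27 in WT. The lowest level among the cells that this limit kept out was 11 and 12.9, and it kept out 6 and 10 cells. Granule genes had no UMI in 402 and 469 gated cells.

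The gated cells were somewhat shallower than the rest. They held 5587178 UMIs in the KO-labelled library and 6314351 in WT, with medians of 7694.5 and 7348 UMIs per cell, against 9419 and 10013 in the other kept cells. Inside the gate Runx1, which the study targeted, stood at 180 CPM in the library labelled KO, above the 99.6 CPM of WT. The 3′ tags may lie outside the deleted part, which the labels do not name, so Runx1 checks nothing about the genotype, and all directions are those of the library labelled KO. The sex of the cells also differed. By Xist and Y-linked UMIs, 474 of the KO-labelled gated cells were female and 49 male, against 1 female and 433 male WT gated cells. Values from male cells alone are therefore set beside the main results. The male gated cells held 416964 UMIs in the KO-labelled library and 5123649 in WT. Male ratios thus have a larger counting error, and they are given without intervals. The libraries shared 39 cell barcodes, of which 0 were gated in both. Library, sex and genotype cannot be told apart over all gated cells.

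The gated cells made up 5.31% (4.90 to 5.75) of kept cells in the KO-labelled library and 6.32% (5.84 to 6.83) in WT. Among male cells the shares were 5.04% and 6.47%. When every cell was first thinned to 3000 UMIs and the gate then applied, the shares were 1.69% (1.45 to 1.95) and 1.90% (1.63 to 2.20), so their intervals overlapped at equal depth. With cells of at least 1000 genes and at most 5% mitochondrial UMIs, the order turned, with 3.82% in the KO-labelled library and 2.17% in WT. The median mitochondrial share of gated cells was 4.88% and 5.85%, and this filter left 332 of 572 KO-labelled and 108 of 599 WT gated cells. Its gene and mitochondrial limits were not tried apart. The share of gated cells had no direction that held across these settings.

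Inside each library the gated cells stood apart from the rest by a set of stem cell, interferon-response and Hox genes. Of 5840 genes measured at 20 CPM or more, 72 (1.23%) were at least 2-fold higher in the gate in both libraries and 39 (0.668%) at least 2-fold lower. The gate was drawn on the same cells, so these values describe it and were not tested. Ranked by the library nearer to 1, the highest were Ltb, which encodes lymphotoxin beta (5.33 times in the KO-labelled library and 6.06 times in WT), the myosin light chain gene Myl10 (5.18 and 5.54), Sult1a1 (5.14 and 7.98) and the homeobox gene Nkx2-3 (6.03 and 4.96). Myof (4.69 and 7.43) came next. The others of the 12 highest were Plxna4os1, the interferon-induced Ifitm1, Hlf, Iigp1, Stxbp4, Cnrip1 and Emcn, between 3.67 and 4.44.

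Genes of committed progenitors were low in the gate. Irf8, a transcription factor gene of monocyte and dendritic progenitors, was at 0.135 times the level of the other cells in the KO-labelled library and 0.104 times in WT. The granulocyte gene Ms4a3 had 0.226 and 0.112, and the erythroid genes Car1, Epor, Klf1 and Aqp1 lay between 0.207 and 0.352. Slpi (0.104 and 0.323) and Mt1 (0.345 and 0.353) completed the 8 lowest, with 48.6% and 42.5% of the gated Slpi UMIs in 1 cell of each library.

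**Figure D1:**
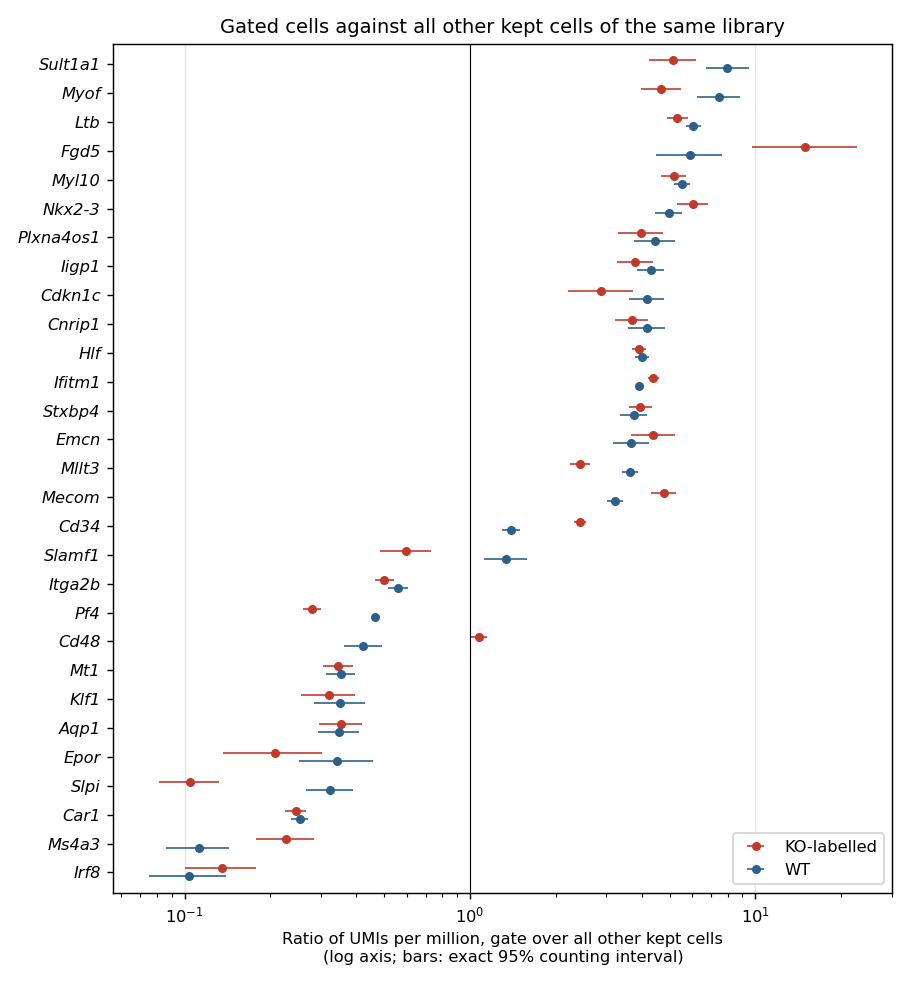
Ratio of CPM in gated cells over all other kept cells of the same library (log axis, exact 95% counting intervals), for the genes named by size and 9 stem cell, surface and platelet genes. Cd48 sits near 1 in the KO-labelled library (1.08) and at 0.422 in WT, while Hlf sits at 3.91 and 4.0.

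By list, 17 of 28 stem cell (HSC) genes measured at 5 CPM or more in each library were at least 1.5-fold higher in the gate than outside it in both libraries, as were 8.08% of all 9567 genes. All 9 Hox genes were so, and 15 of 29 interferon-stimulated genes. Immediate early genes were higher for 5 of 12, quiescence genes for 7 of 17 and haematopoietic transcription factor genes for 8 of 28. Erythroid genes were at least 1.5-fold lower in both for 16 of 17, beside 2.54% of all genes. Lower as well were all 6 neutrophil genes, 10 of 14 genes of granulocyte-monocyte progenitors and 9 of 18 megakaryocyte and platelet genes. Selp and Mmrn1 of the platelet list, which are also found in stem cells, were higher in both. All of these counts describe cells whose other transcripts chose them.

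Between the libraries, Tespa1, Cpa3, Cd48 and Cd52 were among the genes furthest above WT in the KO-labelled gated cells, and Serpinf1, Vwf, Pf4, Bex1 and Bex4 were among those furthest below. At 20 CPM or more in KO-labelled or WT gated cells 6239 genes were measured, of which 67 (1.07%) had at least double the WT level in the KO-labelled gate and 65 (1.04%) were 2-fold or more below it, and the sex-linked Xist, Tsix, Ddx3y and Eif2s3y were among them. In all other kept cells those counts were 48 (0.814%) and 36 (0.611%) of 5894. Most genes past 2-fold in the gate differed in the same direction outside it. Of the 67 higher genes, 66 were also higher in the other cells, 56 of these 1.5-fold or more, where 2.22% of all genes were. Of the 65 lower genes 62 were also lower there, 56 of these 1.5-fold or more, where 2.05% of all genes were. At the 2-fold limit used in the gate, 30 of the 67 and 37 of the 65 passed it in the other cells.

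Tespa1, which encodes an adaptor of lymphocyte receptor signalling, had the largest ratio among genes with a UMI in at least 10% of the gated cells of the higher library. It stood at 193 CPM in the KO-labelled gate and 17.9 CPM in the WT gate, a ratio of 10.8 (8.89 to 13.2), against 3.58 in the other cells. Cpa3, a carboxypeptidase gene of mast cells and their progenitors, stood at 139 CPM in KO-labelled and 19.0 CPM in WT gated cells. The intervals of the libraries did not overlap for either gene, and the male cells had ratios of 12.8 for Tespa1 and 10.9 for Cpa3.

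Cd48, the SLAM receptor that is absent from most adult long-term stem cells, stood at 186 CPM in the KO-labelled gate and 26.8 CPM in the WT gate. That is a ratio of 6.96 (5.91 to 8.24), against 2.73 in the other cells, and it ranged from 4.39 with the stricter cell filter to 21.4 when the gate was applied to thinned cells. Cd52, a small anchored surface glycoprotein, stood at 197 and 32.5 CPM, and Cd53, a tetraspanin, at 61.4 and 13 CPM. In WT both Cd48 (0.422 times) and Cd52 (0.344 times) were lower inside the gate than outside it, while in the KO-labelled library they were at 1.08 and 1.27 times.

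Others of the 12 highest were Lpcat2, a lysophospholipid acyltransferase (27.7 and 3.80 CPM), Hmga2, a chromatin protein of fetal stem cells (49.4 and 8.87 CPM), the syntaxin Stx3 (41.9 and 9.34 CPM), the adaptors Lat2 (95.9 and 23.1 CPM) and Tyrobp (68.5 and 17.4 CPM), and Fam46a (98.6 and 25.2 CPM). Hmga2 was the gene among these 6 whose ratio was smaller in the gate (5.57) than outside it (6.05), and in male cells it was 2.61. Below that 10% limit, S100a8 and S100a9 had ratios of 12.6 and 12.5, and Retnlg, with 0 UMIs in the WT gate, was at least 68.9-fold higher when 0 is set to 3 counts. Of their KO-labelled UMIs, 1 cell held 208 of 256, 293 of 344 and 183 of 183.

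Among the lower genes, Serpinf1, which encodes a secreted serpin, stood at 3.58 CPM in the KO-labelled gate and 42.6 CPM in the WT gate, a ratio of 0.084 (0.0505 to 0.132). Vwf, which encodes von Willebrand factor and marks platelet-biased stem cells, stood at 4.83 and 39.3 CPM. Pf4, a platelet chemokine, stood at 140 and 712 CPM, a ratio of 0.197 that was 0.0731 in male cells and 0.712 when the gate was applied to thinned cells. Tnip3, an inhibitor of inflammatory signalling, stood at 11.8 and 74.9 CPM. In all of these the KO-labelled gate was low and the intervals did not overlap.

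Bex1 (10.0 and 57.0 CPM) and Bex4 (8.23 and 47.2 CPM) lie on the X chromosome, and their ratios of 0.176 and 0.174 were 0.129 and 0.298 in male cells. The cytokine signalling inhibitor Socs2 stood at 16.6 and 65.2 CPM, the cation channel gene Trpc6 at 8.41 and 36.6 CPM, the Wnt receptor gene Ryk at 4.3 and 20.4 CPM, and Selenom at 13.6 and 52.4 CPM. Slfn2, a gene of lymphocyte and monocyte quiescence, stood at 12 CPM in the KO-labelled gate and 45.3 CPM in the WT gate, a ratio of 0.265, while in the other cells it was 1.09. Igkc, an immunoglobulin chain gene, had the lowest ratio, 17 against 2284 CPM, but 1 WT cell held 53.2% of its 14419 UMIs, and without 3 immunoglobulin-rich WT cells the ratio was 0.52. In male cells the ratios were 0.592 for Selenom, 0.372 for Ryk, 0.165 for Socs2, 0.122 for Slfn2 and 8.19 for Stx3. They rest on few UMIs from 49 KO-labelled cells, and whether they differ from the main ratios was not tested.

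**Figure D2:**
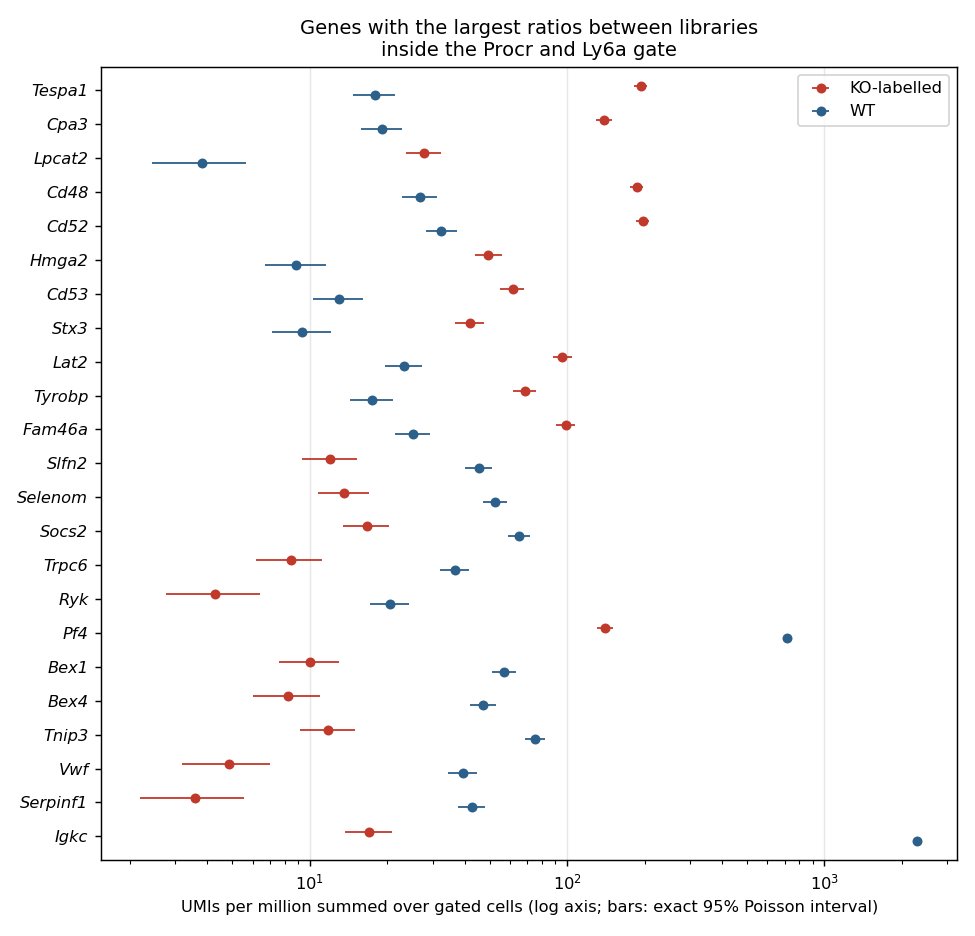
CPM in gated cells of the KO-labelled and WT libraries (log axis, exact 95% Poisson intervals) for 11 of the 12 genes with the highest ratios and the 12 with the lowest. Tespa1 is at 193 against 17.9 CPM at the top and Igkc at 17 against 2284 CPM at the bottom.

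All 24 genes kept their direction over the 15 alternatives run, and 21 stayed past 2-fold in each of them, the exceptions being Igkc, Pf4 and Selenom. Alternatives with another floor on CPM could not change the ratio of a gene. Those with another scaling or total shifted the ratios of all genes by a common factor. The 24 genes were picked by the size of these same ratios, so a kept direction is weak support.

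**Figure D3:**
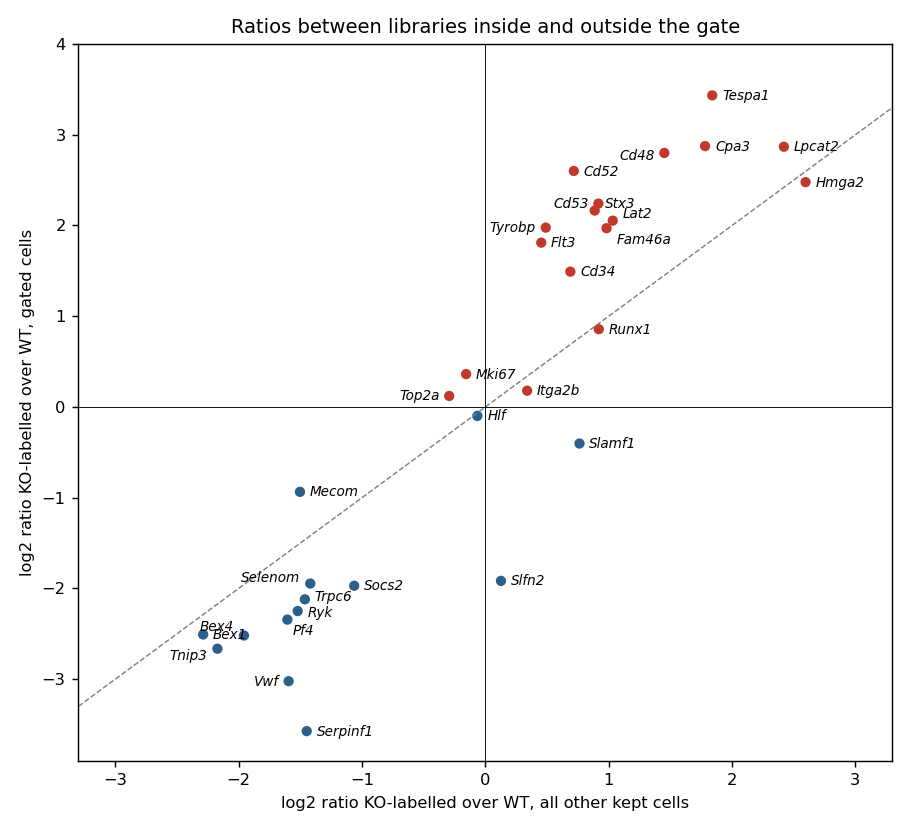
The log2 ratio of KO-labelled over WT in gated cells (vertical) against the same ratio in all other kept cells (horizontal), with the line of equality dashed, for the genes named by size and the genes whose shares of cells were measured, without Igkc, Fcer1a and Serpine2. Most points lie on the same side of 0 on both axes, and Slfn2, Slamf1, Mki67 and Top2a lie across.

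Cd48 (ENSMUSG00000015355) lies on chromosome 1 from 171682009 to 171705258 on the plus strand of GRCm38, and Serpinf1 (ENSMUSG00000000753) on chromosome 11, minus strand, from 75409769 to 75422701. The 250 bases before the RefSeq start (build GRCm38.p6) of 4 of the 24 genes are shown because they hold TGTGGT, the core bases that RUNX proteins bind, or its reverse complement ACCACA. The RefSeq start of Cd48 lies before the GENCODE gene start given above and is not the start of any GENCODE transcript of Cd48. The RefSeq start of Serpinf1 lies inside the GENCODE gene given above, so part of the bases shown for Serpinf1 belong to that gene. All distances below are from the RefSeq start. The capitals mark the match, which lies 76 bases before the start in Cd48, 73 in Cpa3 and 250 in Cd53, and 117 and 90 in Serpinf1. The sequences are written 5′ to 3′ on the strand of the gene, for Cd48 at chr1:171681742-171681991 (plus strand), Cpa3 at chr3:20242182-20242431 (minus), Cd53 at chr3:106790150-106790399 (minus) and Serpinf1 at chr11:75422624-75422873 (minus).
Cd48: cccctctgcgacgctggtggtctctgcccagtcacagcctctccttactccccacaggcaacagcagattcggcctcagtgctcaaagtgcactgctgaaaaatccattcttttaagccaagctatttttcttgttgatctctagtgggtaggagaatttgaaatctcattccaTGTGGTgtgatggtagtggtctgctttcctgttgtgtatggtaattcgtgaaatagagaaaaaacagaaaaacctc
Cpa3: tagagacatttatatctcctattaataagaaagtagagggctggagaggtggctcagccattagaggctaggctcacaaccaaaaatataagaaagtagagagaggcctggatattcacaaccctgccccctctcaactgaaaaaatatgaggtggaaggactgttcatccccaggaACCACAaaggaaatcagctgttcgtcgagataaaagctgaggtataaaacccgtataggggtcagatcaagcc
Cd53: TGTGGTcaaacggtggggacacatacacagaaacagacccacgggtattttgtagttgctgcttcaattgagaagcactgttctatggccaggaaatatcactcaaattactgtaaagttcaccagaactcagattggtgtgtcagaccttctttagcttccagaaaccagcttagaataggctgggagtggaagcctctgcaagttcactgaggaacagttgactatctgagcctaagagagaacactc
Serpinf1: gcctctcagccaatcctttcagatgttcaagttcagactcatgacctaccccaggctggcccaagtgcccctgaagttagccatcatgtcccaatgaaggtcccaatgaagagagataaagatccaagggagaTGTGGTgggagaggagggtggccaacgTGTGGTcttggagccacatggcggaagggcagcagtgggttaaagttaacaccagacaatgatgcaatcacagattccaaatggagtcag
Over windows from 250 bases before to 50 bases after the start, searched on both strands, 3 of the 6 highest genes found in the RefSeq table held the motif, 2 of the 9 lowest, and 3 of the 10 found among those highest in the gate over the rest. Of all 27025 genes with a promoter in the table, 18.9% held it. These are matches of letters in a window and not measured binding.

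Surface markers that separate progenitors from stem cells were found in far more KO-labelled gated cells. At 3000 UMIs per cell, Cd48 was detected in 40.1% (36.1 to 44.3) of 568 KO-labelled gated cells and 4.04% (2.61 to 5.95) of 594 WT gated cells, and in 41.8% and 14.8% of the other cells. Without thinning those shares of gated cells were 75.5% and 14.5%. Cd34 was detected in 67.1% (63.0 to 70.9) and 28.8% (25.2 to 32.6) of gated cells, and in 31.5% and 22.2% of the others. Flt3, the receptor of a lymphoid and myeloid progenitor cytokine, was detected in 9.33% (7.07 to 12) and 2.53% (1.42 to 4.13), against 3.63% and 2.76% outside. For all 3 genes the intervals of the gated cells did not overlap. Among male gated cells the shares were 35.4% and 3.72% for Cd48, 77.1% and 28.6% for Cd34, and 10.4% and 2.79% for Flt3, with only 48 male KO-labelled cells.

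UMIs of progenitor markers and of stem cell genes were also counted together in single cells. A UMI of Flt3, Cd48 or Cd34 was found in 79.9% of KO-labelled and 31.5% of WT gated cells at 3000 UMIs. Among gated cells that also had a Mecom or Hlf UMI the shares were 78.6% (73.9 to 82.7) and 31.7% (27.3 to 36.2), and among those without one 82.3% (76.4 to 87.2) and 31.0% (23.9 to 38.8). Within each library, cells with and without the stem cell genes had overlapping intervals. Cells with 10 or more granule-gene UMIs per 10000, a myeloid population at median depths of 15737 and 15416 UMIs, had a Cd48 UMI in 46.1% and 38.4%. In those cells the stem cell gene Mecom was found in 0.298% and 4.2%, and Hlf in 7.30% and 7.86%, both below the shares of gated cells. No cell type that should lack Cd48, Cd34 and Flt3 was measured, and doublets were not removed, so the part of free RNA and of doublets in these joint shares was not tested.

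**Figure D4:**
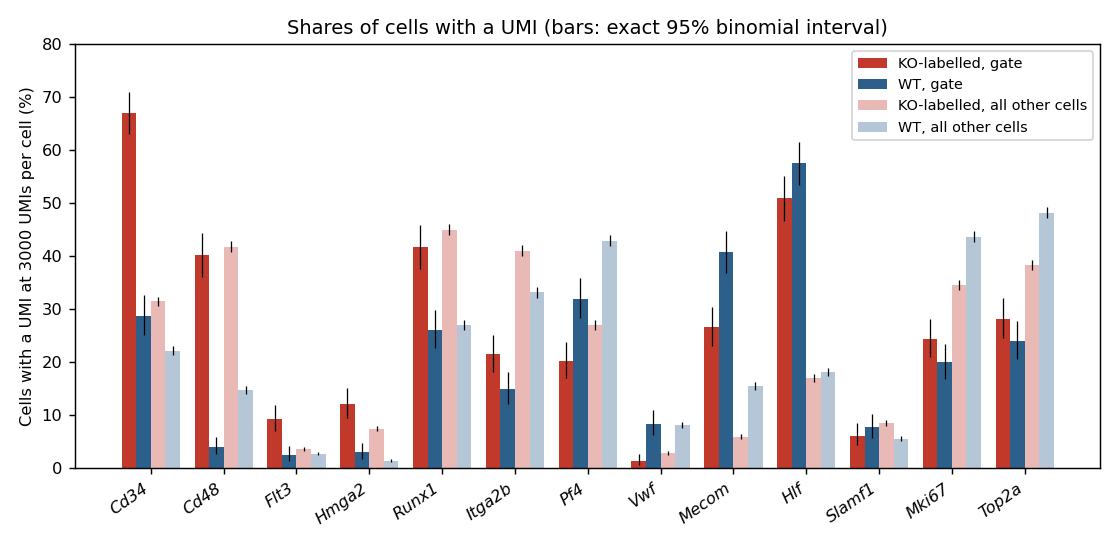
Share of cells with at least 1 UMI at 3000 UMIs per cell (percent, exact 95% binomial intervals) for 13 genes, in gated cells and in all other kept cells of the KO-labelled and WT libraries. Cd48 reaches 40.1% of KO-labelled and 4.04% of WT gated cells, and Hlf 50.9% and 57.6%.

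Stem cell genes other than Hlf were mostly lower in the KO-labelled gate. Mecom was at 88.2 CPM in KO-labelled and 169 CPM in WT gated cells, a ratio of 0.523 (0.469 to 0.582), against 0.353 outside the gate and 0.562 in male cells. It was detected in 26.6% (23 to 30.4) of KO-labelled and 40.7% (36.8 to 44.8) of WT gated cells. Hlf stood at 256 and 274 CPM, a ratio of 0.934 (0.870 to 1.0), and at 1.34 in male cells, so its direction depended on the cells taken.

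Of the 32 measured HSC list genes, 5 were higher and 27 lower in the KO-labelled gate. Of all 10017 genes at 5 CPM or more, 41.6% were higher and 58.4% lower. At 1.5-fold or more 0 of the list were higher and 15 lower, where 4.33% and 8.45% of all genes were. These shares of all genes are the background for every list count between the libraries that follows. The list's median log2 ratio was -0.57, against -0.058 for all genes and -0.11 for the list outside the gate. Members on the low side included Cdkn1c, which encodes the cell cycle inhibitor p57 (12.2 and 39.1 CPM, ratio 0.311), Ctnnal1 (0.270), Cish (0.423) and Ifitm1 (433 and 870 CPM, 0.497). Fgd5 stood at 7.34 and 12.4 CPM and Mllt3 at 123 and 166 CPM (0.745). Ndn, an imprinted gene of quiescence, had 2 UMIs in the KO-labelled gate and 74 in the WT gate, a ratio of 0.0305 (0.00363 to 0.114). The median was -0.29 in male cells and -0.21 with the stricter cell filter.

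Genes that increase with age in mouse stem cells were lower as well. Of 21 measured, 15 were lower, 11 of these 1.5-fold or more, where 58.4% and 8.45% of all genes were. The list's median log2 ratio was -0.79 inside the gate and -0.04 outside it, and -0.54 inside it in male cells. Vwf, Clu, Itgb3, Cavin2, Selp and Plek are shared with the platelet list, and Clca3a1, Fhl1 and Slamf1 with the HSC list. Aldh1a1, a retinaldehyde dehydrogenase gene, stood at 25.6 and 70.8 CPM, Nupr1 at 29.0 and 78.6 CPM, and the adhesion gene Alcam at 16.3 and 29.6 CPM. In male cells the ratio of Aldh1a1 was 0.545 and that of Nupr1 0.679. Jun stood at 557 and 363 CPM, the only member at least 1.5-fold higher. The ages of the mice are not given in the sources used here.

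Platelet genes divided. Of 17 measured, 6 were higher and 11 lower in the KO-labelled gate, 4 and 6 by at least 1.5-fold. Of all genes 41.6% were higher and 58.4% lower, 4.33% and 8.45% by at least 1.5-fold. Vwf, Pf4, Clu, the integrin gene Itgb3 (7.16 and 18.4 CPM), Cavin2 (24.5 and 57.0 CPM) and Mmrn1 (31.7 and 62.6 CPM) were on the low side. Gp5, a platelet glycoprotein gene, stood at 91.5 and 37.4 CPM, Treml1 at 42.2 and 25.2 CPM, and Itga2b at 114 and 101 CPM. Pf4 was detected in 20.2% of KO-labelled and 32.0% of WT gated cells and, as a background, in 5.07% and 13% of granule-rich cells, which should lack it. Vwf was detected in 1.41% (0.610 to 2.76) and 8.42% (6.31 to 10.9). Itga2b had the opposite order, with 21.5% (18.2 to 25.1) and 15.0% (12.2 to 18.1). In male cells, with only 49 KO-labelled gated cells, Treml1 had a ratio of 0.396 and Itga2b of 0.891, while Gp5 had 1.45 and Cavin2 0.074. The male ratios rest on few KO-labelled UMIs, and whether Treml1 and Itga2b changed side was not tested.

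All 28 genes of the G2 and M phases were higher in the KO-labelled gate, with small ratios. Their median log2 ratio was 0.30, their ratios lay between 1.02 for Tacc3 and 1.70 for Kif23, and 1 passed 1.5-fold, while outside the gate the median was -0.13. Mki67, the proliferation gene that encodes Ki-67, stood at 321 CPM in KO-labelled and 249 CPM in WT gated cells, and at 405 and 451 CPM in the other cells. The summed level of the list was 4064 CPM in the KO-labelled gate and 3354 CPM in the WT gate, both below the 5181 and 5607 CPM of the other cells. Cells with at least 5 UMIs of the list at 3000 UMIs made up 32.9% of KO-labelled and 26.6% of WT gated cells, against 49.0% and 60.7% of the others. With the stricter cell filter the median in the gate was -0.06, and with at least 2 UMIs of Procr and of Ly6a it was 1.04, so its size and sign followed the choice of cells.

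S phase genes did not move with them. Of 32 measured, 10 were higher and 22 lower in the KO-labelled gate, beside 41.6% and 58.4% of all genes. The list's median log2 ratio was -0.16, and 0.22 when the gate was applied to thinned cells. Of 17 genes linked to quiescence, 12 were higher and 5 lower (median 0.26). The higher ones included the cell cycle inhibitor gene Cdkn2c (82.0 and 34.5 CPM, ratio 2.37), the antiproliferative Btg2 (59.1 and 27.4 CPM) and the repressor gene Gfi1 (18.8 and 6.18 CPM, ratio 3.04), while Cdkn1c and Ndn were among the lower ones. Of 12 immediate early genes, which respond to handling and to signalling, 11 were higher (median 0.21), and Egr1 was at 20.8 and 38.6 CPM. Outside the gate the medians of those lists were 0.21 for quiescence and 0.33 for immediate early genes.

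Interferon signalling is the switch of Mx1-Cre and also acts on stem cells. Interferon-stimulated genes were high in the gate of both libraries, with median log2 ratios over the other cells of 0.66 in the KO-labelled library and 0.92 in WT. Between the libraries 13 of 30 were higher and 17 lower, 1 and 6 by at least 1.5-fold, with a median of -0.13. Of all genes 41.6% were higher and 58.4% lower, near the 13 and 17 of the list. At 1.5-fold or more the shares of all genes were 4.33% and 8.45%. The GTPase gene Iigp1 stood at 41.0 and 68.7 CPM and the restriction factor gene Ifitm3 at 634 and 1001 CPM. Irf7 stood at 23.3 and 19.2 CPM, with an interval of its ratio that held 1.

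**Figure D5:**
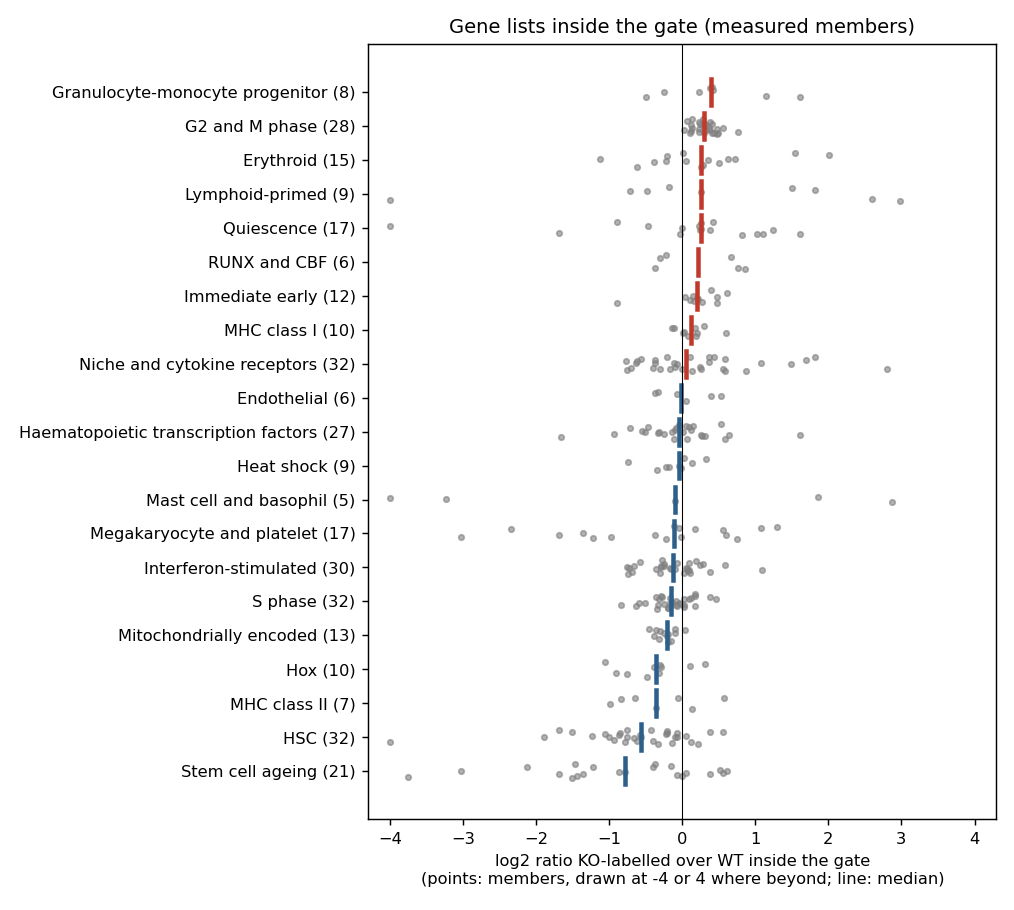
The log2 ratio of KO-labelled over WT inside the gate for each measured member (points) and the median (line) of the gene lists with at least 5 measured members (number in brackets). The ageing list has its median at -0.79, the HSC list at -0.57 and the G2 and M phase list at 0.30.

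Hox genes set position along the body axis and are active in stem cells. Of 10 measured members 8 were lower, 3 by at least 1.5-fold, beside 58.4% and 8.45% of all genes. Their median log2 ratio was -0.36 inside the gate (0.09 in male cells and 0.21 with a floor of 50 CPM) and -0.47 outside it. Hoxa10 stood at 19.0 CPM in the KO-labelled gate and 35.6 CPM in the WT gate, Hoxb5 at 4.12 and 8.55 CPM, and Hoxa9, the most abundant, at 73.2 and 59.1 CPM. Of 27 haematopoietic transcription factor genes 13 were higher and 14 lower (median -0.04). The lowest was Tcf15 (13.4 and 42.6 CPM, ratio 0.315, and 0.775 in male cells), which marks quiescent stem cells, and then Mecom, while Gfi1, Lyl1 (194 and 125 CPM, 1.56) and Spi1, which encodes PU.1 (140 and 93.3 CPM, 1.5), were higher. Gata2, Tal1, Lmo2 and Meis1 lay between 0.907 and 1.09.

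In the RUNX and CBF list, Runx1 had a ratio of 1.81 (1.64 to 2.0), Runx2 (78.9 and 49.9 CPM) of 1.58 and Runx3 (116 and 68.4 CPM) of 1.69, while Cbfb (28.5 and 36.7 CPM) had 0.775 (0.629 to 0.952), and 1.2 in male cells. The corepressor genes Cbfa2t3 and Cbfa2t2 had 0.811 and 0.857, and 0.530 and 1.2 in male cells. The median of the 6 measured members was 0.22 on the log2 scale, but -0.22 with no floor on CPM and -0.19 with totals that left out ribosomal and mitochondrial genes. Runx1 was detected in 41.7% of KO-labelled and 26.1% of WT gated cells at 3000 UMIs, and in 37.7% and 20.3% of granule-rich cells.

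Receptors for niche and cytokine signals divided evenly, with 16 of 32 higher and 16 lower (median 0.05), 7 and 5 by at least 1.5-fold. Besides Cd48, Flt3 and Cd34, the cytokine receptor genes Csf2rb (32.8 and 10.1 CPM, ratio 3.23) and Csf3r (ratio 2.12) and the interleukin receptor gene Il6ra (14.5 and 7.92 CPM) were higher. Csf2ra (30.4 and 47.0 CPM), Ptger4 (9.31 and 15.8 CPM) and Il6st (7.52 and 12.2 CPM) were lower. Kit, on which the cells were sorted, stood at 190 and 203 CPM, and the niche receptor gene Cxcr4 at 6.44 and 6.97 CPM.

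Lists of other lineages were thin inside the gate. Of 9 measured lymphoid-primed genes 5 were higher and 4 lower (median 0.26, with 1.26 without the immunoglobulin-rich WT cells and -0.14 in male cells), with Cd52, Flt3 and Satb1 (8.05 and 2.85 CPM) among the higher ones and Mef2c at 171 and 282 CPM. Of 8 measured genes of granulocyte-monocyte progenitors 6 were higher (median 0.39, and -0.07 in male cells), led by Gfi1 and Plac8 (491 and 221 CPM). Of 15 erythroid genes 10 were higher (median 0.26, with -0.39 in male cells and -0.38 without the 5% deepest cells). Among 5 measured mast cell and basophil genes, Cpa3 was high while the basophil protease gene Prss34 had 0 UMIs in KO-labelled and 32 in WT gated cells, at least 9.44-fold lower when 0 is set to 3 counts, and Fcer1a had 1 and 35. Of the 4 measured neutrophil genes (median 3.94), S100a8, S100a9 and Retnlg had most of their KO-labelled UMIs in 1 cell. When the cell with most UMIs of the gene was left out of each library, KO-labelled and WT, S100a8 had a ratio of 2.71 and S100a9 of 2.06.

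Of the monocyte and dendritic list 4 genes were measured, all higher in the KO-labelled gate (median 2.24), but the median was 0.54 without the 5% deepest cells, 0.50 with equal weight for each cell and 0.67 in male cells. Of these genes, Cst3 stood at 457 and 387 CPM and Ms4a6c at 78.8 and 37.9 CPM. The 3 complement genes of macrophages were lower (median -0.82), at 2.68 to 3.76 CPM in the KO-labelled gate and 5.07 to 7.28 CPM in WT. The B cell list had 1 measured member (Cd79b, 41.3 and 35 CPM), the T and NK list 1 (Nkg7, 96.6 and 137 CPM) and the stromal list 1 (Pdgfrb, 13.4 and 6.33 CPM). The 6 endothelial genes had a median of -0.01. Antigen presentation genes of class I had a median of 0.12 (8 of 10 higher) and of class II -0.36 (5 of 7 lower, Cd74 at 143 and 257 CPM, with a median of 0.24 under the stricter cell filter). Heat shock genes had -0.05 and mitochondrially encoded genes -0.21, with 12 of 13 lower, beside 58.4% of all genes. Whether mitochondrial content, depth or sex of the cells had a part in any of these differences was not tested.

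Cells inside and outside the gate were also split by their Procr and Ly6a UMIs. With at least 2 UMIs of both Procr and Ly6a, in 94 KO-labelled and 116 WT cells, Cd48 stood at 171 and 23.7 CPM and Mecom at 106 and 173 CPM. In gated cells with a single UMI of one or both, Cd48 stood at 190 and 27.5 CPM and Mecom at 84.6 and 168 CPM. Cells with Procr but without Ly6a (200 and 316 cells) had Cd48 at 239 and 41.4 CPM and Mecom at 53.1 and 129 CPM. Cells with Ly6a but without Procr (2072 and 1342) had 206 and 38.9 CPM of Cd48 and 47.0 and 110 CPM of Mecom. Those with neither, under the granule limit (7254 and 6664), had 161 and 57.0 CPM of Cd48 and 12.1 and 42.8 CPM of Mecom. Hlf stood at 297 and 306 CPM with 2 or more UMIs each and at 41.2 and 51.5 CPM with neither. The sets were split on the UMIs that drew the gate, so levels between them are a description. The order of the libraries in Cd48 and Mecom was the same in all 5 sets of cells.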

How the data were processed

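The authors deposited a matrix of UMI counts for each of 1 KO-labelled and 1 WT library. The submitters' processing notes name Cell Ranger 2.1.1 and the build mm10, and per the file headers the software version is 3.1.0. Libraries followed the 3′ v2 kit, per the labels' protocols. Counts were used as deposited. Barcodes with at least 500 genes and at most 10% mitochondrial UMIs were kept, 10769 of 11398 KO-labelled and 9472 of 9969 WT. Doublets were not removed, and no caller was run. The alternative without the 5% deepest cells left 555 of 572 KO-labelled and 569 of 599 WT gated cells. It does not replace a caller, since doublets of ordinary depth would stay in.

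UMIs were summed over gated cells per library and divided by their total (CPM). A library at 0 counts was set to 3 counts, and no ratio was given where both libraries were at or under 3 counts. Sums have exact Poisson, ratios exact conditional binomial and shares exact Clopper-Pearson intervals, at 95%. PCR and sampling between animals are not covered by them. With 1 library per genotype no test was run. A gene counted at 20 CPM or more in either library and a ratio of at least 2, list members from 5 CPM. Shares are of cells thinned without replacement to 3000 UMIs, which left out 4 KO-labelled and 5 WT gated cells.

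The gate, the 27 gene lists and the alternatives were chosen with earlier results of these data known, so they are no independent support. The genes named between libraries were those with the 12 largest and the 12 smallest ratios, from 20 CPM upward and detected in at least 10% of the gated cells of whichever library was higher. Those named for the gate over the rest were the 12 highest and 8 lowest by the library nearer to 1. The 5 gate genes and ribosomal protein, mitochondrial, sex-linked, haemoglobin and unnamed genes were left out. Other list members are examples chosen after their values were seen. A few genes, 1 of the 12 largest ratios among them, are not reported here; they stay in the counts and medians. Male cells had a UMI of 1 of 4 Y-linked genes and no Xist UMI, and female cells at least 2 Xist UMIs and no Y-linked UMI. In simulated sums, 100 of 100 genes changed 3-fold passed 2-fold, 0 of 100 changed 1.5-fold and 0 of 5879 unchanged genes did, and 190 of 200 intervals held the simulated ratio. Those sums varied by counting error only, and the changed genes were drawn from mean levels above the 20 CPM floor. The simulation therefore does not cover changed genes near that floor or list members under it. Alternatives included TMM factors from edgeR 4.0.16 and DESeq2 1.42.0 size factors. Alternatives without immunoglobulin-rich cells (50 or more UMIs per 10000 of Igkc, Ighm and Jchain), in cells with a Mecom or Hlf UMI, and without the cell with most UMIs of each gene were added after seeing the data. Positions are from GENCODE on GRCm38. Python 3.11.15, numpy 2.4.6, scipy 1.17.1, pandas 2.3.3, matplotlib 3.10.9 and R 4.3.3 were used.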

Additional observations from a re-analysis of the deposited data

Results flagged for a closer look

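Hbb-bt, a beta globin gene, had a log2 ratio of KO-labelled over WT of -1.13 in gated cells (16.1 and 35.2 CPM) and 1.73 in all other kept cells (177 and 53.5 CPM). It was the only gene past 2-fold in the gate that passed 1.5-fold the other way outside it. Other globin genes did not share its direction in the gate, with Hbb-bs at 26.1 and 18.4 CPM and Hba-a1 at 7.88 and 6.49 CPM. The difference between gated and other cells was not tested, here and for the lists that follow. The G2 and M phase list had a median of 0.30 in gated cells and -0.13 in the others, where the WT cells had the higher sum. The lymphoid-primed list had a median of 0.26 and -0.25, and the mast cell and basophil list -0.10 and 0.31, with 9 and 5 measured members in the gate.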

How the results depend on the processing

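With 1 library per genotype and gated counts of 572 and 599 cells, genes under about 20 CPM are limited by counting error, and no replicate could be left out. No paired analysis was possible because each genotype has 1 library. Counts of genes followed the floor and the choice of cells. For KO-labelled over WT inside the gate, the 67 higher and 65 lower genes were 525 and 1097 with no floor on CPM, 30 and 23 with a floor of 50 CPM, 367 and 420 with the gate applied to thinned cells, 191 and 168 with 2 UMIs of both gate genes, and 165 and 288 in male cells. For the gate over the rest, the 72 higher and 39 lower genes were 979 and 279 with no floor, 28 and 18 at 50 CPM, and 150 and 236 after thinning. The higher ones were 46 with the stricter cell filter and 151 with totals that left out ribosomal and mitochondrial genes. The shares of kept cells were 3.82% and 2.17% with the stricter filter, 1.69% and 1.90% after thinning, and 0.873% and 1.22% with 2 UMIs of both. The log2 ratio of Ighm turned to 0.68 with 2 UMIs of both and to 1.26 without immunoglobulin-rich cells. The mast cell and basophil median was 0.94 under TMM scaling and 1.61 under the stricter filter, and 3 of its 5 members lay within 1 CPM of the floor. HSC, ageing, interferon-stimulated, immediate early, quiescence and class I medians kept their sign in all 14 alternatives that gave one.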
